A study of Mus musculus with 10 samples.

Results

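Adult haemoglobin transcripts were followed across muscle arrays of knockout and wild-type mice. The set holds every probe set whose annotated symbols are all among 7 genes: the alpha globins Hba-a1 and Hba-a2, the beta globins Hbb-bs, Hbb-bt, Hbb-b1 and Hbb-b2, and Alas2. There were 9 such probe sets of 45037 on the Affymetrix Mouse Genome 430 2.0 array after leaving out array controls, 8 for globins and 1 for Alas2, and all 9 were tested. The samples were gastrocnemius, a calf muscle, from 5 male mice lacking Skn-1, also called Pou2f3, and from 5 wild-type males, each on its own array. Skn-1/Pou2f3 encodes a POU-domain regulator on which taste cells and tuft cells depend. All mice were 12 to 16 weeks old, ate chow and were fasted for 18 h before dissection. The labels give both genotypes a mixed 129 x C57BL/6J background, and the knockout was crossed back to C57BL/6J for over 10 generations. How the gene was disrupted, and whether vessels were cleared of blood, is not in the labels. The study's design compares gene expression in fasted muscle with and without Skn-1, and the globins are described within it from array to array.

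Red cells have no nucleus when mature, and the youngest of them in blood, the reticulocytes, still hold globin messenger RNA. Adult haemoglobin joins alpha chains to beta chains around haem, and Alas2 is the erythroid enzyme that starts haem synthesis. Muscle fibres store oxygen with myoglobin rather than haemoglobin, so globin transcripts in a muscle extract are usually read as a sign of blood in its vessels. In these bulk extracts fewer red cells and less globin RNA per red cell cannot be told apart.

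The members lie on 3 chromosomes, none of which holds Pou2f3 (chromosome 9). In the GRCm38.p6 gene table, Hba-a1 spans chr11:32283672-32284486, Hba-a2 spans chr11:32296492-32297310, Hbb-bt spans chr7:103812524-103813923, Hbb-bs spans chr7:103826523-103827928 and Alas2 spans chrX:150547417-150570622. The array values themselves carry no build, and which exon or untranslated region each probe set covers is not given here. The 130 bases before each annotated start are shown as background, and their part in the array values was not tested. They are from RefSeq, build GRCm38.p6, 5′ to 3′ on the gene's strand. Capitals mark matches on either strand to the CCAAT box (reversed, ATTGG), the TATAA element (reversed, TTATA), the CACCC box (reversed, GGGTG) and the GATAA motif (reversed, TTATC), and neighbouring matches can touch or overlap.
Hba-a1, chr11:32283542-32283671, plus strand: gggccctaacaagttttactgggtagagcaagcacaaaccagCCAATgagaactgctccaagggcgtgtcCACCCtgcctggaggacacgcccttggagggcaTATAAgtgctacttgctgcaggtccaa
Hbb-bs, chr7:103827929-103828058, minus strand: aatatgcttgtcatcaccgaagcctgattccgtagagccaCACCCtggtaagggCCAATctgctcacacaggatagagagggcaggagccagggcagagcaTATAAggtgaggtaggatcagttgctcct
Hbb-bt, chr7:103813924-103814053, minus strand: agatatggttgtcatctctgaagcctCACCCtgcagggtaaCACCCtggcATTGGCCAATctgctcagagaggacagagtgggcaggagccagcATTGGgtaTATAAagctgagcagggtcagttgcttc
Alas2, chrX:150547287-150547416, plus strand: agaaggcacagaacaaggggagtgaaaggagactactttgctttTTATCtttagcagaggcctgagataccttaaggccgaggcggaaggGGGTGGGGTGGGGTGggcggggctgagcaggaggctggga

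The 3 globin windows share a CCAAT box, a CACCC box and a TATAA element, while GATAA was not among their letters. In Hba-a1 the CCAAT match begins 88 bases before the start and the TATAA match 27 bases before it. In Hbb-bs these lie 76 and 29 bases before the start, and in Hbb-bt a TATAA match lies 28 bases before it. The Alas2 window held CACCC matches on the reverse strand, the nearest beginning 30 bases before the start, and 1 reverse GATAA match, with no CCAAT or TATAA. Of 32851 windows of the same length, 22.4% held CCAAT, 12.7% TATAA, 33.7% CACCC and 11.4% GATAA, and 0.825% held the first 3 together. The table's windows of Hba-a1 and Hba-a2, 300 bases each, share an unbroken run of 297 bases. Their near identity in this window stands beside the 3 alpha probe sets that the annotation assigns to both genes.

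How the deposited values vary decides what can be read from each member. For 86.2% of all probe sets the SD over the 10 arrays was no more than 0.01 (median 0.000189), and these are called low-variation here because their differences give no size of a change in RNA. The other 6209 had a median SD of 0.168. Array medians lay between 6.23 and 6.24, and the values, which run from 4.93 to 13.96, are taken as log2 although no base is stated. Of the members, 4 varied: 1417184_s_at, annotated to all 4 beta genes, and 1417714_x_at, 1428361_x_at and 1452757_s_at, each annotated to both alpha genes. The other 5 were low-variation, namely the Alas2 probe set 1451675_a_at, 1427219_at for Hba-a2, 1453574_at for Hba-a1, and 1427865_at and 1427866_x_at for Hbb-b2. The single-gene probe sets of Hba-a1 (6.06) and Hba-a2 (5.84) lay below the array medians on average, while those of Hbb-b2 (6.85 and 7.15) and Alas2 (6.91) lay above. So no probe set that varied tells one alpha gene from the other, or one beta gene from another.

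The beta globin probe set 1417184_s_at was bright in every array. In knockouts 1 to 5 it stood at 12.32, 12.52, 12.51, 12.50 and 12.37, and in wild types 1 to 5 at 12.30, 12.61, 12.44, 12.50 and 12.70. The lowest and the highest value both came from wild types, and the genotypes overlapped. From lowest to highest the arrays spanned 0.39, or 1.31-fold. Knockouts averaged 12.44 ± 0.0932 (SD, n = 5) and wild types 12.51 ± 0.152. The difference, knockout minus wild type, was −0.07 ± 0.08 SE (limma adjusted p = 0.969), with a 95% interval from −0.25 to 0.11. As a ratio this is 0.954 times the wild-type level, with an interval from 0.844 to 1.08.

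The alpha globin probe sets showed the same arrays high and low. 1428361_x_at stood at 12.87, 13.06, 12.97, 12.90 and 12.92 in knockouts 1 to 5 and at 12.82, 13.13, 12.92, 13.01 and 13.10 in wild types 1 to 5. Wild type 1 was again lowest and wild type 2 highest, with all knockouts between them. The difference was −0.05 ± 0.07 SE (limma adjusted p = 0.974), a ratio of 0.966 with a 95% interval from 0.871 to 1.07. 1452757_s_at stood at 12.81, 12.98, 12.87, 12.77 and 12.80 in knockouts and at 12.77, 13.03, 12.81, 12.91 and 12.98 in wild types. The same wild types marked both ends here. Its difference was −0.06 ± 0.06 SE (limma adjusted p = 0.964), a ratio of 0.962 with an interval from 0.876 to 1.06.

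The dimmest of the alpha probe sets that varied, 1417714_x_at, swung most. It stood at 9.96, 10.39, 10.13, 9.83 and 9.76 in knockouts 1 to 5 and at 9.78, 10.51, 9.92, 10.11 and 10.50 in wild types 1 to 5. Knockout 5 was lowest and wild type 2 highest, and the genotypes overlapped. The arrays spanned 0.75, or 1.68-fold, and the SD over arrays was 2.81 times that of 1428361_x_at, which carries the same gene names and spanned 1.25-fold. The difference was −0.15 ± 0.18 SE (limma adjusted p = 0.973), a ratio of 0.902 with a 95% interval from 0.676 to 1.20. The probe sets 1428361_x_at and 1452757_s_at lay on average 0.995 and 1.09 below the highest value of the arrays, and 1417714_x_at lay 3.87 below it. Whether brightness had a part in the size of the swing was not tested.

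**Figure D1:**
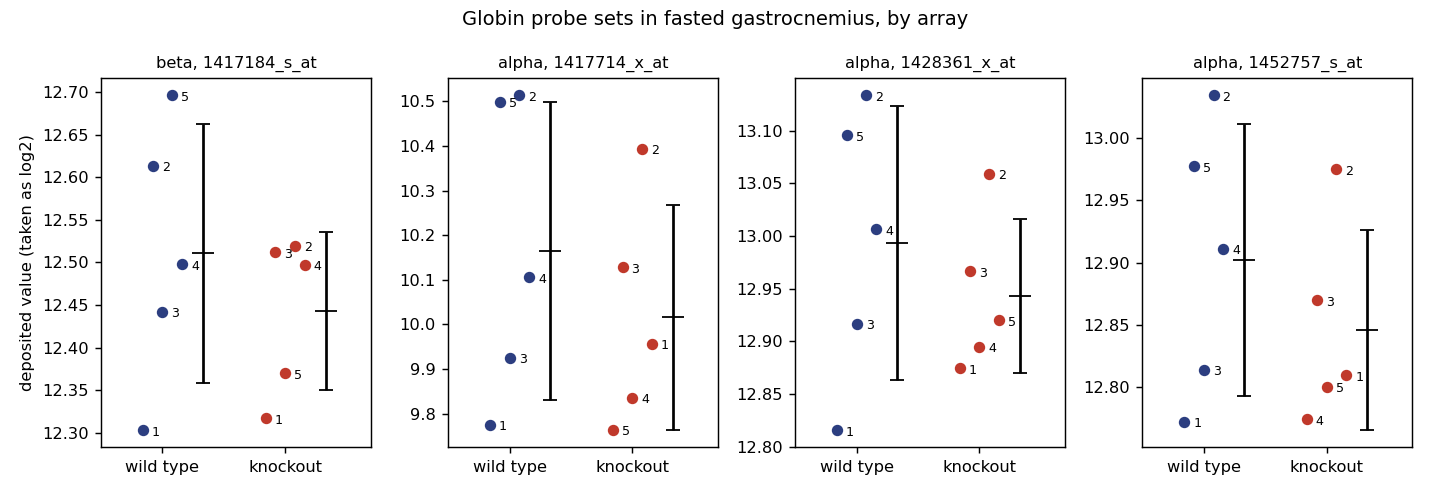
Deposited values (taken as log2) of the 4 globin probe sets that varied, 1 panel each with its own vertical axis; points are arrays numbered by replicate, and the black mark and bar give mean ± SD of 5 arrays. In each panel the genotypes overlap, with wild types 2 and 5 at or near the top and wild type 1 at or near the bottom.

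No member passed between the genotypes. None of the 9 had a limma adjusted p under 0.05, where 0.191% of all probe sets did (86, of which 70 were higher and 16 lower in knockouts). None had an unadjusted p under 0.05 either, where 6.62% of all probe sets did, and none had genotypes without overlap, where 1.60% did. Unadjusted limma p ran from 0.369 to 0.458 in the 4 that varied and from 0.0884 to 0.959 in the other 5. Exact two-sided permutation tests of the 4 gave p from 0.333 (1452757_s_at) to 0.476 (1428361_x_at), where 0.00794 is the smallest that 5 against 5 arrays allow. All 4 differences were below 0, as were 50.8% of all probe sets that varied, and over all 9 members against all probe sets the share was 9 of 9 against 51.4%. The 4 follow each other from array to array, so their common sign is not 4 separate observations. A p above the threshold does not show equal levels. The intervals still hold a signal in knockouts from 0.676 to 1.20 times that of wild types by the widest, 1417714_x_at. By the narrowest, 1452757_s_at, they hold 0.876 to 1.06 times. Both probe sets are annotated to the same alpha genes, so neither interval alone bounds the level of globin RNA.

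**Figure D2:**
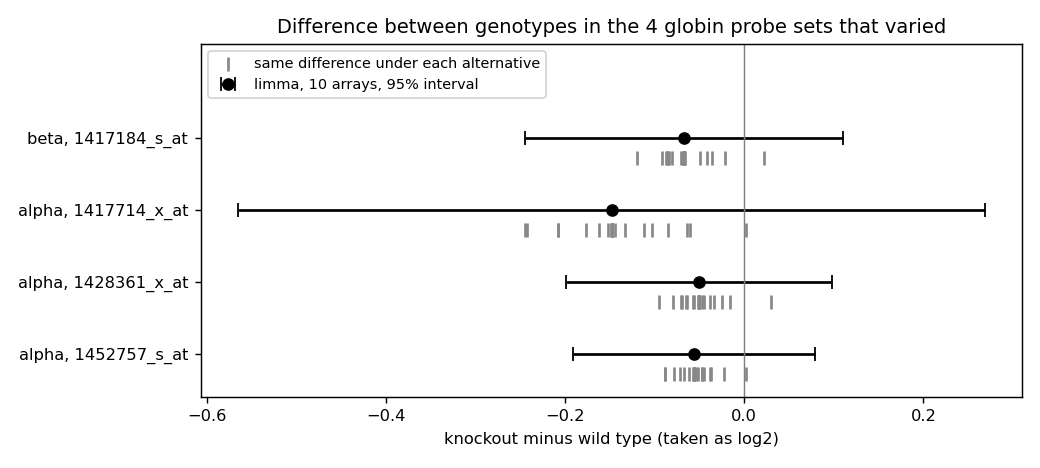
Knockout minus wild type (taken as log2) for the 4 globin probe sets that varied; black points and bars are the limma difference with its 95% interval over 10 arrays, and grey ticks are the same difference under each alternative setting. Every black interval crosses 0. The 1 grey tick above 0 for each probe set is the fit within 5 arrays that carried markers of skin or lymphocytes.

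Alpha and beta globin rose and fell together over the arrays. Pearson's r between the beta probe set and the alpha probe sets over 10 arrays was 0.844 (1417714_x_at), 0.885 (1428361_x_at) and 0.802 (1452757_s_at). With the genotype means taken out these were 0.831, 0.876 and 0.783. Without wild types 2 and 5, the 2 arrays farthest from the median, they were 0.659, 0.798 and 0.641. The alpha probe sets correlated with each other at 0.943 to 0.972, and 1428361_x_at and 1452757_s_at share an annotated accession. The alpha and beta genes share neither chromosome nor gene name, but all values of an array come from 1 RNA sample and 1 scan. Arrays were therefore ordered by the mean deviation of the 4 probe sets. It was lowest in wild type 1 (−0.19), followed by knockout 5 (−0.14), knockout 1 (−0.11), knockout 4 (−0.10) and wild type 3 (−0.08). Above these came knockout 3 (0.02), wild type 4 (0.03), knockout 2 (0.13), wild type 5 (0.22) and wild type 2 (0.22). Wild types thus held both ends of the order.

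Alas2 kept much of this order although its values hardly moved. The probe set spanned 0.00231 in all, with wild type 3 lowest and wild type 5 highest. Its r with the mean globin deviation was 0.860 over 10 arrays, and 77 of the other low-variation probe sets (0.198%) were as high or higher. With single probe sets r was 0.869 for beta (0.672 without wild types 2 and 5) and 0.806 to 0.827 for alpha (0.570 to 0.583 without them). Wild type 3, lowest for Alas2, was in the middle of the order for globins, and wild type 1, lowest for globins, was not among the lowest 3 for Alas2. The deviations are far below what could be read as a fold, so the values give an order of arrays and no amount of Alas2 RNA. Of the low-variation globin probe sets, 1427866_x_at for Hbb-b2 had an r of 0.696 with the beta probe set. Over 10 arrays r with it was −0.235 for Hba-a2, −0.352 for Hbb-b2 at 1427865_at and 0.0961 for Hba-a1. With the genotype means taken out, r was −0.494 for Hba-a2 and −0.597 for 1427865_at. Within wild types r was −0.655 and −0.888 and within knockouts −0.307 and −0.121, each over 5 arrays. Wild type 1 was lowest for the beta probe set and highest for both of these. Within knockouts r with the varying alpha probe sets ran from 0.210 to 0.611 for 1427865_at and from −0.710 to −0.361 for 1427219_at. No difference between genotypes is read from these values.

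**Figure D3:**
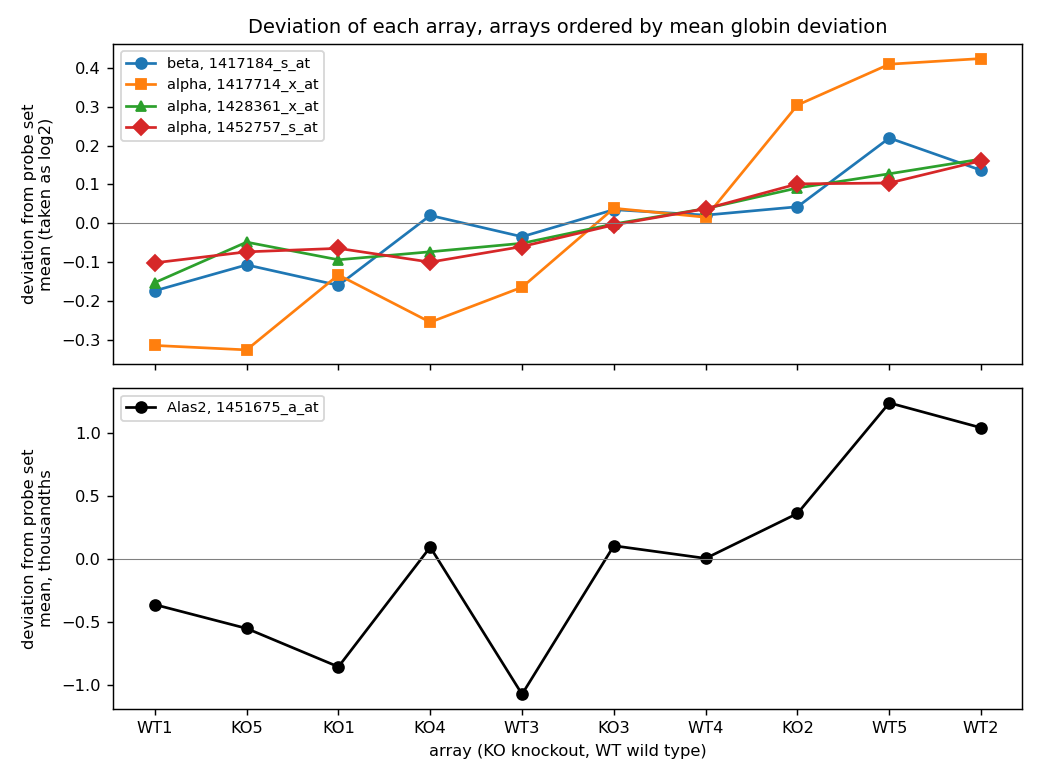
Upper panel, deviation of each array from the probe set mean (taken as log2) for the 4 globin probe sets that varied; lower panel, the same for Alas2 in thousandths, with arrays ordered by mean globin deviation. Wild types 5 and 2 are highest in both panels, and wild type 3 is lowest for Alas2 alone.

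The arrays with least globin RNA were those that carried markers of skin or lymphocytes. Of the 15 probe sets for epidermis and hair markers 12 varied. Their mean value was 7.32 in knockout 1, 7.65 in knockout 4, 7.14 in wild type 1 and 7.08 in wild type 3. It lay between 5.95 and 5.97 in the other 6 arrays. Krt5 ran from 6.99 to 8.17 in the arrays with the higher means. Krt25 stood at 9.10 in wild type 1 and 8.21 in wild type 3, but at 5.88 and 5.75 in knockouts 1 and 4. Krt1 stood at 7.36 and 7.58 in knockouts 1 and 4, but at 5.87 in wild type 1 and 6.18 in wild type 3. The list mean thus joins arrays that carried different skin markers. Of the 23 for B and T lymphocyte markers 10 varied, and their mean was 7.64 in knockout 5 and 7.61 in wild type 3, and between 5.95 and 6.12 in the other 8. These 5 arrays, taken by a marker mean over 0.5 above its median over arrays, were the 5 with the lowest mean globin deviation. They lay between −0.19 and −0.08, and the remaining 5 between 0.02 and 0.22. For 1417714_x_at the former ran from 9.76 to 9.96 and the latter from 10.11 to 10.51. The sets of arrays did not overlap in the other varying probe sets either, though for beta globin knockout 4 (12.497) and wild type 4 (12.498) all but met. The share of all probe sets that part these sets of arrays is not given here, and the globin probe sets follow each other. The cut was applied to the skin and lymphocyte lists alone. Adipocyte markers averaged highest in wild type 3 (9.17), knockout 5 (8.82) and knockout 4 (8.68). Next came wild type 5 (8.47), whose mean globin deviation was 0.22. The split was noticed in the data and got no test, and what part the other tissues had in the globin values was not tested.

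**Figure D4:**
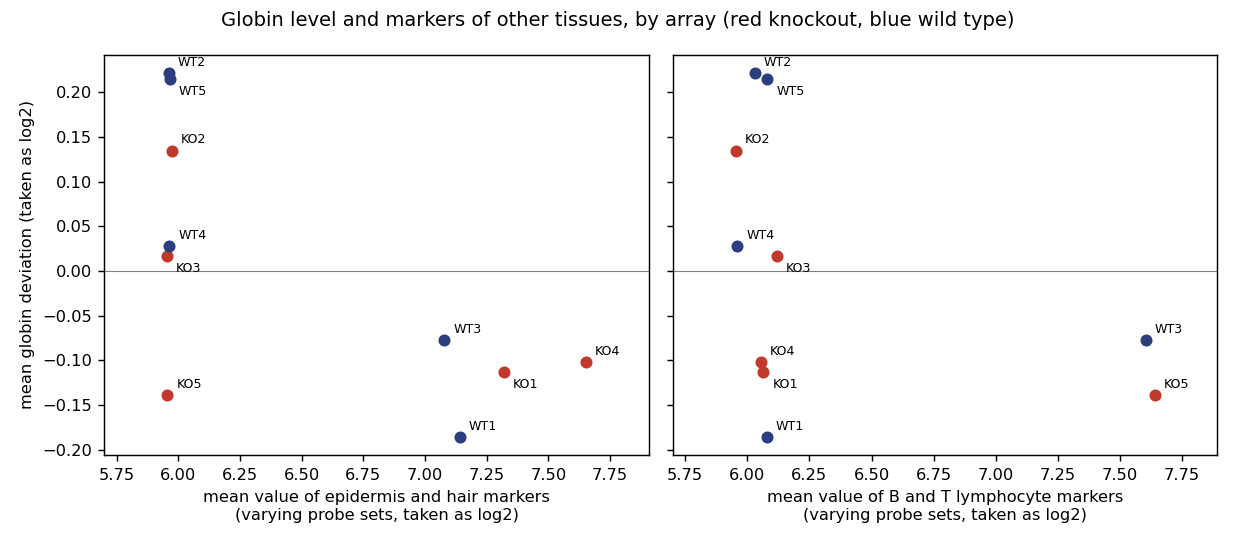
Mean globin deviation of each array (taken as log2) against the mean value of varying probe sets for epidermis and hair markers (left) and for B and T lymphocyte markers (right); red points are knockouts (KO) and blue points wild types (WT), with replicate numbers. The 5 arrays to the right in either panel all lie below 0, and the 5 arrays to the left in both lie above it.

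Both genotypes held such arrays, 3 knockouts and 2 wild types. These 5 arrays were grouped after the values were seen and were also the 5 lowest in globin. Within them the beta probe set differed by 0.022 ± 0.081 SE (limma adjusted p = 0.994), with knockouts higher. The alpha probe sets differed by 0.0017 ± 0.086 SE (1417714_x_at), 0.030 ± 0.039 (1428361_x_at) and 0.0015 ± 0.019 (1452757_s_at). Each difference was smaller than its SE, so no change of direction is read from the sign. Among the 5 arrays without these markers the difference was −0.09 for beta, −0.11 for 1417714_x_at, −0.07 for 1428361_x_at and −0.05 for 1452757_s_at. None of these passed, with limma adjusted p of 0.930 for beta and 0.970 for 1417714_x_at.

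No probe set of the other listed genes of haem synthesis and red cells passed between the genotypes with limma. Of the 8 enzymes of haem synthesis other than Alas2, 7 were measured by 18 probe sets. None passed with limma in either direction, where 0.191% of all probe sets did. There were 2 at an unadjusted p under 0.05, where 6.62% of all probe sets were. Alas1, the form of the first enzyme used outside red cells, averaged 8.93 ± 0.249 (SD, n = 5) without Skn-1 and 8.85 ± 0.0897 with it (limma adjusted p = 0.977). Fech, which puts iron into haem, averaged 9.42 in knockouts and 9.41 in wild types in its varying probe set. Low-variation probe sets of Ppox and Fech had the smallest unadjusted p of this list, 0.0247 and 0.0487, and that of Urod the highest mean (9.64). The median difference over the 2 varying probe sets was 0.04, against −0.0021 over all varying probe sets.

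Mitochondrial carriers and iron-sulfur genes that serve haem synthesis gave 11 probe sets for 8 of 10 listed genes. None passed with limma (0.191% of all probe sets did), and 2 had an unadjusted p under 0.05, where 6.62% of all probe sets did. Slc25a38, the glycine carrier, had the smallest unadjusted p of the list (0.00044, limma adjusted p = 0.103) in a low-variation probe set, followed by Abcb10. In the Slc25a38 probe set the genotypes did not overlap, with knockouts at most 7.11033 and wild types at least 7.11038. The share of all probe sets without overlap was 1.60%. Iscu, the scaffold of iron-sulfur clusters, averaged 10.16 ± 0.0872 (SD, n = 5) without Skn-1 and 10.16 ± 0.116 with it. Glrx5, of the same path, was low-variation at 10.09. Flvcr1, a haem exporter, stood at 8.61 ± 0.553 in knockouts and 8.49 ± 0.232 in wild types and was highest in knockout 1, at 9.49. The median difference of its 3 varying probe sets was 0.0022.

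The red cell list gave 54 probe sets for 28 of 35 genes. None passed with limma (0.191% of all probe sets did), and 1 had an unadjusted p under 0.05, where 6.62% of all probe sets did. Just 10 of the 54 varied, 6 of them lower in knockouts, with a median difference of −0.01. The erythroid transcription factor gene Nfe2 had the smallest unadjusted p (0.00252, limma adjusted p = 0.268), in a low-variation probe set below the array medians. There the genotypes did not overlap, with knockouts at most 5.64114 and wild types at least 5.64126, where 1.60% of all probe sets had no overlap. Ank1, the ankyrin of the red cell membrane with forms in muscle, averaged 9.02 ± 0.323 (SD, n = 5) without Skn-1 and 8.75 ± 0.338 with it in 1 of its 2 varying probe sets. In the other it averaged 8.02 ± 0.148 without Skn-1 and 8.05 ± 0.261 with it. Fam220a stood at 7.82 ± 0.153 in knockouts and 8.02 ± 0.208 in wild types (limma adjusted p = 0.863) in 1 varying probe set and at 8.07 ± 0.165 and 8.18 ± 0.0895 in the other, and Prdx2, a peroxidase abundant in red cells, was low-variation at 10.05. Across arrays the list's median r with the mean globin deviation was 0.01 over its varying probe sets and 0.05 over all 54. Most of the 54 were low-variation, so these medians cannot tell whether red cell RNA followed the globins. Tfrc, the transferrin receptor, was at 7.66 in knockout 1 and 9.15 in knockout 3, and had an r of 0.107 with them. The embryonic globins Hba-x, Hbb-y and Hbb-bh1 were low-variation in all 7 probe sets, with means from 5.30 to 6.11, below the array medians.

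Markers of the other cells that blood or vessels could bring were mixed. Platelets were represented by 1 varying probe set of 8, Pf4, which ran from 8.73 to 8.89 in knockouts and from 8.45 to 9.11 in wild types. It was lowest in wild types 4 and 2, and wild type 2 was highest for globins. Of 8 neutrophil probe sets the 2 that varied, S100a8 and S100a9, averaged 6.02 to 6.71 in knockouts and 5.84 to 7.33 in wild types, highest in wild type 3. Endothelial markers, with 6 of 16 probe sets varying, ran from 8.28 to 8.51 and from 8.27 to 8.60. Macrophage markers, with 11 of 12 varying, ran from 7.92 to 8.58 in knockouts and from 7.80 to 8.84 in wild types. Over 10 arrays r with the mean globin deviation was −0.220 for Pf4, −0.401 for neutrophil, 0.446 for endothelial and 0.102 for macrophage markers. Within knockouts these were 0.726, −0.587, −0.455 and −0.0769 and within wild types −0.279, −0.369, 0.784 and 0.172. Each of these is an r over 5 arrays, so no difference between genotypes is read from them. The endothelial mean joins probe sets that went different ways. Over 10 arrays r was 0.947 for Esam, 0.721 for Emcn, 0.630 for Vwf and 0.600 for Cdh5. It was −0.219 for Cldn5, which was highest in knockout 1 (9.35), and −0.329 for Kdr. All 10 muscle fibre genes were measured, and their varying probe sets averaged 12.28 to 12.49 in every array. Of 118 probe sets in all 10 marker lists, those of slow fibre, adipocyte, Schwann cell, skin and lymphocyte markers included, none passed between genotypes with limma (0.191% of all probe sets did). There were 4 at an unadjusted p under 0.05, where 6.62% of all probe sets were. Of these, 3 were endothelial and lower in knockouts: Emcn and low-variation probe sets of Cdh5 and Erg. The other was a probe set of Myh4, higher in knockouts. The 3′ minus 5′ difference of the Gapdh control probe sets, a sign of RNA quality, ran from 0.318 to 0.528 and had an r of 0.221 with the globins. The same difference of the actin control probe sets ran from 0.326 to 0.819 with an r of −0.313. It was highest in knockout 5 (0.819), knockout 4 (0.753) and wild type 3 (0.725), all among the 5 arrays with least globin. Of the others among those 5, knockout 1 stood at 0.644 and wild type 1, lowest for globins, at 0.460. The Gapdh difference was lowest in knockout 5 (0.318). What part RNA quality had in the globin values was not tested.

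Among probe sets with an SD above 0.1, the genes most like the globins over the arrays were not red cell genes of the list. This limit left out every low-variation probe set. Of the 54 red cell probe sets just 10 varied, so most of that list could not be ranked. Among those left out, r with the mean deviation of the 4 varying globin probe sets ran from −0.689 (Gypc) to 0.793 (Trim10). Likeness was Pearson's r over 10 arrays with the mean deviation of the 8 globin probe sets, among 4492 other probe sets with 1 named gene and an SD above 0.1. It is a description, since the highest of so many values over 10 arrays will be high. Maff, a small Maf transcription factor, led with an r of 0.962 (0.911 within knockouts, 0.991 within wild types). It was lowest in wild type 1, at 7.05, and highest in wild type 2, at 8.37, as the globins were. Slc39a14, a zinc and iron transporter, had an r of 0.958 and ran from 6.66 to 8.12 in the same arrays. Then came Spsb1 (0.947), the endothelial adhesion molecule Esam (0.947), Doc2b (0.940), Tinagl1 (0.936), the laminin chain Lama2 (0.936), Apbb3 (0.935), the immediate early gene Btg2 (0.929) and the syntaxin Stx3 (0.923). Without the 2 arrays farthest from the median, wild types 2 and 5, r of these 10 ran from 0.846 (Apbb3) to 0.933 (Slc39a14). The most opposed were Trim13 (−0.872), Nceh1 (−0.862), the kinase gene Prkcq (−0.859), the angiopoietin Angpt1 (−0.858) and Atp1b1 (−0.829). Without the same 2 arrays these ran from −0.843 (Nceh1) to −0.615 (Angpt1). None of these 15 passed between genotypes with limma, where the smallest unadjusted p was 0.0959 (Angpt1).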

How the data were processed

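Affymetrix Mouse Genome 430 2.0 arrays of 5 knockout and 5 wild-type muscles were used. Per the labels' protocols, Trizol and then columns were used for RNA, of which 100 ng was labelled by 3′ IVT. The authors deposited 1 value per probe set and array. The deposited scale is read as log2 because of its range, and as already normalized because array medians are close; how this was done is not given in the sources used here. Precision is limited by the number of arrays. Of 45101 rows, 64 array controls were left out. Members were chosen by the platform annotation, in which 34945 probe sets have 1 symbol, 932 several and 9160 none; list genes were named by current symbols through gene identifiers (RefSeq, GRCm38.p6).

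All probe sets were fitted by lmFit and eBayes, with no trend and no block (limma 3.58.1, R 4.3.3), with Benjamini-Hochberg adjustment over 45037 at 0.05. The fit was tested on simulated data. Exact permutation tests used scipy 1.17.1. Members and lists were chosen with earlier results of these data known. All members are named; in each haem or red cell list the rule names probe sets past the threshold, or else the 2 with the smallest p and the 2 with the highest mean, and the 10 most and 5 least like probe sets; Alas1, Flvcr1, Tfrc and the marker genes were added after values were seen. Alternatives covered scaling, filters, moderation, weights, the replicate number as a block and left-out arrays.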

Additional observations from a re-analysis of the deposited data

Results flagged for a closer look

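In 4 probe sets 1 array stood apart from the other 4 of its genotype by Dixon's criterion for 5 values (0.71), which chance meets in about 1 of 20 groups. The criterion was applied to 56 groups, each genotype of each probe set examined. The low-variation Hba-a2 probe set 1427219_at was highest among wild types in wild type 1, at 5.83969, while the others ended at 5.83919. Iscu stood at 10.36 in wild type 1 against at most 10.13 in the other wild types. Fam220a stood at 8.38 in wild type 1 against at most 7.998. Esam stood at 9.06 in knockout 2 against at most 8.88 in the other knockouts. Wild type 1 was also the array with the lowest mean globin deviation and carried epidermis and hair markers.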

How the results depend on the processing

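No member, haem synthesis or red cell probe set passed the adjusted threshold in limma under any alternative that was run. The difference in beta globin ran from −0.12 to 0.022 over 21 alternatives and that of 1417714_x_at from −0.25 to 0.0017. The ranges were −0.10 to 0.030 for 1428361_x_at and −0.09 to 0.0015 for 1452757_s_at. The sign changed under 1 alternative, chosen after seeing the data. Within the 5 arrays with skin or lymphocyte markers the differences were 0.022, 0.0017, 0.030 and 0.0015, each smaller than its SE, where 3 knockouts met 2 wild types. With the replicate number as a block the differences stayed −0.07, −0.15, −0.05 and −0.06 (limma adjusted p from 0.878 to 0.924), and 5 of all probe sets passed. With the block the low-variation members 1427219_at and 1427865_at had an unadjusted p of 0.0375 and 0.0330 (limma adjusted p = 0.660 and 0.651), where no member was under 0.05 without it. The labels give same-numbered arrays of the genotypes a common replicate number and no other link. Their deviations correlated at −0.40 to 0.322, and 2 of 5 knockouts correlated best with their own number. These correlations cannot tell whether same-numbered arrays were handled together. The count of all probe sets past the threshold was 86 in the reported fit, 143 without low-variation probe sets and 43 after quantile normalization, and 31 to 57 in fits without 1 array, fewest without knockout 4 and most without wild type 1. It was 16 without the 2 arrays with lymphocyte markers. Without the 5 arrays with skin or lymphocyte markers it was 0, and within those 5 it was 0 (limma), where fewer arrays were fitted. At an unadjusted p under 0.05 there were 2672 and 2590 probe sets in the last 2 fits. Among low-variation members the sign changed in 6 of 18 alternatives for 1453574_at, 2 of 19 for 1427866_x_at, 1 of 19 for Alas2 and 1427865_at, and 0 of 18 for 1427219_at. The cause of these changes was not tested. Values near the array median may be close to background, which the table does not give.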
